A study of Macaca mulatta with 38 samples.

Results

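Synaptic vesicle and SNARE genes were taken as the 73 rows of a 34619-gene count table whose symbols name a synaptotagmin (SYT), synapsin (SYN), syntaxin (STX), syntaxin-binding protein (STXBP), VAMP, SNAP, complexin (CPLX), SV2, RIMS, RAB3 or UNC13 gene. The list was drawn up by symbol and not by level, though with earlier results of these data known. It joins genes of the neuronal release machinery to relatives that serve membrane traffic in most cells. By their known roles the genes were sorted into 30 neuronal release genes, 12 other synaptotagmins, 3 syntaxin-binding regulators and 28 general trafficking genes. The last class includes RAB3B and UNC13B. Of the 73 genes, 68 had enough reads to be tested, among 20794 genes tested in all. The other 5 were CPLX4 (at most 3 reads in any library), STX19 (6), STXBP2 (12), SYT15 (29) and SYT8 (42).

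A vesicle SNARE such as VAMP2 zips together with a syntaxin and a SNAP protein of the plasma membrane and pulls both membranes into fusion. The UNC13 proteins ready the SNAREs, complexins hold and promote the assembled complex, and a synaptotagmin calcium sensor triggers it. Newborn cortical neurons switch on this machinery as they leave the progenitor state, whereas SNAP23, VAMP3 and STX4 carry constitutive exocytosis in many cell types.

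The libraries came from cultured neural stem cells of fetal rhesus macaque (Macaca mulatta) cortex, labelled WT throughout, in 4 culture series: E77 Frontal and E77 Occipital with 10 libraries each, and E42 Anterior and E42 Posterior with 9 each, 38 in all. E77 and E42 give the embryonic day of the fetus, and the second word gives the cortical area dissected. In every series cells were plated on PLO/fibronectin and expanded in N2 medium with daily FGF2, and after day 5 they were differentiated in NeuroBasal medium with B27, BDNF and NT-3 and no FGF2. Days 1, 3 and 5 in vitro form the stem phase, days 6, 7 and 8 the transition, and days 11, 14 and 17 (with day 20 at E77) the terminal phase. Each series gave 1 library per day, from 2 wells per condition, and the days of a phase served as its replicates, 3 or 4 per group. The labels do not say that libraries came from separate animals, so p-values measure the spread between days of a culture, and age or region cannot be told apart from the fetus, the dissection or the culture run.

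Counted reads per library ranged from 20149635 to 56363300. Levels are given as CPM, read counts scaled to the library total with TMM factors, and levels of different genes are compared only as RPKM, which divides by gene length. Radial glia markers, which define neural stem cells of the cortex, summed to 7795 to 13665 CPM in the 12 stem libraries, and neuron markers to 1720 to 3816 CPM there, so neuronal RNA was present from day 1. E42 Anterior stood apart from the other series before any comparison: fibroblast markers summed to 17757 to 43618 CPM in its stem and terminal libraries, against 48.4 to 391 CPM in those of the other series. Microglial markers were at or near 0, with 1 of 8 tested and a highest sum of 2.19 CPM in the stem and terminal libraries.

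The release machinery rose between the stem and terminal phases while the general trafficking genes divided. Averaged over the 4 series, 42 of the 68 genes rose, where 31.9% of all genes tested did so, and 11 fell, where 30.4% of all genes did (edgeR's quasi-likelihood test, with p-values adjusted over all genes by the method of Benjamini and Hochberg and a threshold of 0.05). Of the 29 neuronal release genes tested, 26 rose and 1 fell, with a median log2 change of 1.495. Of the 10 other synaptotagmins 8 rose and 1 fell (median 1.36), and of the 3 regulators 2 rose. The 26 general trafficking genes had 6 higher, 9 lower and 11 that did not pass, with a median of -0.036, near the median of 0.00084 over all genes. In bulk RNA, fewer cells of a type and less RNA per cell cannot be told apart, and neuron markers moved in the same direction, with 13 of 14 higher and a mean summed level 2.23 to 2.59 times as high in terminal as in stem libraries of each series. Over the same phases the summed level of astrocyte markers was 1.10 to 2.76 times, of oligodendrocyte-lineage markers 0.58 to 2.27 times, of radial glia markers 0.586 to 0.774 times and of proliferation markers 0.394 to 0.684 times the stem level. The part of these markers in the results was not tested. Without the E42 Anterior series 41 genes rose and 10 fell.

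**Figure D1:**
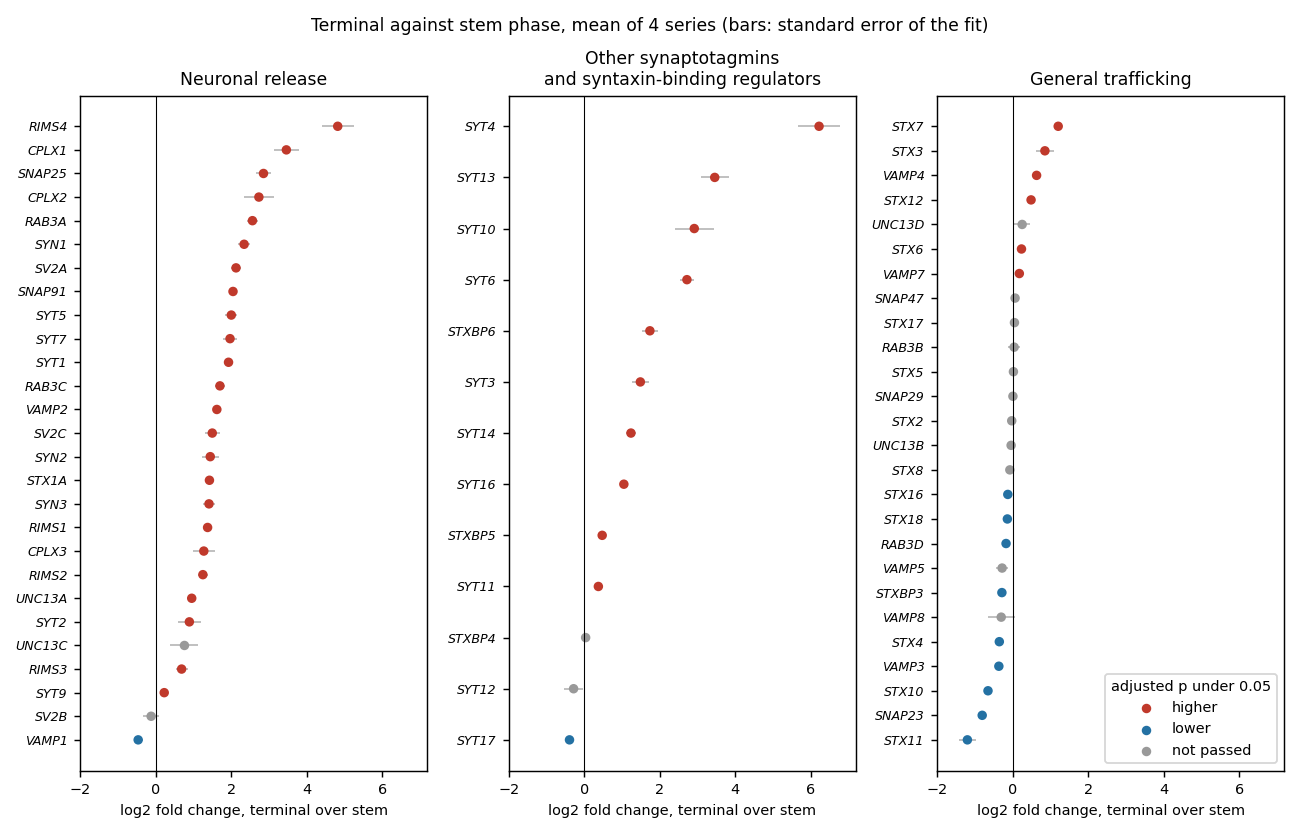
Log2 fold change of tested genes, terminal over stem, averaged over 4 series (points) with the standard error of the fit (bars), in panels by role. Red and blue points passed the test as higher and lower, and nearly all neuronal release genes lie right of 0, VAMP1 and SV2B being left of it, while general trafficking genes lie on both sides.

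The plasma membrane SNARE SNAP25 had 21.1 CPM as its lowest, 29.9 as its median and 71.4 as its highest value over the 14 terminal libraries, against 1.25, 4.90 and 13.7 CPM over the 12 stem libraries. The 2 groups did not overlap, and the log2 change was 2.85 ± 0.20 (SE; edgeR, adjusted p = 6.1e-13). Its relative SNAP23, which serves fusion outside neurons, went the other way, with 18.3 to 31.7 CPM in terminal libraries (median 27.4) and 34.8 to 55.2 CPM in stem libraries (median 45.1). SNAP23 fell by 0.81 ± 0.06 on the log2 scale (edgeR, adjusted p = 3.7e-13), also without overlap. As RPKM, the ratio of SNAP25 to SNAP23 was 0.88 to 1.41 in terminal and 0.0682 to 0.103 in stem libraries of E77 Frontal, and 0.837 to 1.24 and 0.0328 to 0.157 in those of E77 Occipital. It was 1.39 to 1.73 in terminal and 0.0844 to 0.328 in stem libraries of E42 Anterior, and 1.98 to 4.39 and 0.181 to 0.312 in those of E42 Posterior. SNAP23 thus gave the higher RPKM of the pair in every stem library, and SNAP25 did so in every terminal library of the E42 series.

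Of 7 vesicle SNARE genes 3 rose and 2 fell, and of 10 plasma membrane SNARE genes tested 4 rose and 3 fell. Among all genes tested 31.9% rose and 30.4% fell. The vesicle SNARE VAMP2 had 159, 250 and 322 CPM (lowest, median, highest) in terminal libraries, against 63.0, 78.6 and 105 CPM in stem libraries (log2 change 1.62 ± 0.11, edgeR adjusted p = 3.4e-13), with no overlap. VAMP3, its relative in constitutive and recycling traffic, had 74.3, 91.9 and 129 CPM in terminal and 100, 112 and 184 CPM in stem libraries, a fall of 0.37 ± 0.05 on the log2 scale (edgeR, adjusted p = 3.2e-07) with overlapping groups. The VAMP2 to VAMP3 ratio of RPKM lay between 1.32 and 4.40 in terminal libraries and between 0.362 and 1.06 in stem libraries. VAMP1, a vesicle SNARE best known from spinal cord and neuromuscular junctions, was the 1 release gene that fell: 3.73, 4.71 and 7.27 CPM in terminal against 3.91, 7.38 and 9.95 CPM in stem libraries, a fall of 0.47 ± 0.12 on the log2 scale (edgeR, adjusted p = 0.0015). With each day reduced to 1 value, the fall of VAMP1 did not pass (adjusted p = 0.064, limma).

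STX1A, a neuronal syntaxin of the plasma membrane, rose as well. STX1A had 30.4, 43.3 and 58.4 CPM in terminal libraries and 11.6, 15.1 and 31.2 CPM in stem libraries (log2 change 1.42 ± 0.10, edgeR adjusted p = 9.3e-13), with a slight overlap between phases. STX4, the syntaxin of general plasma membrane fusion, fell by 0.36 ± 0.12 (edgeR, adjusted p = 0.0084), a call lost when each day was reduced to 1 value (adjusted p = 0.13, limma), and passed in none of the 4 series alone. STXBP3, a broadly used syntaxin-binding protein, fell by 0.29 ± 0.06 (edgeR, adjusted p = 8.7e-05).

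**Figure D2:**
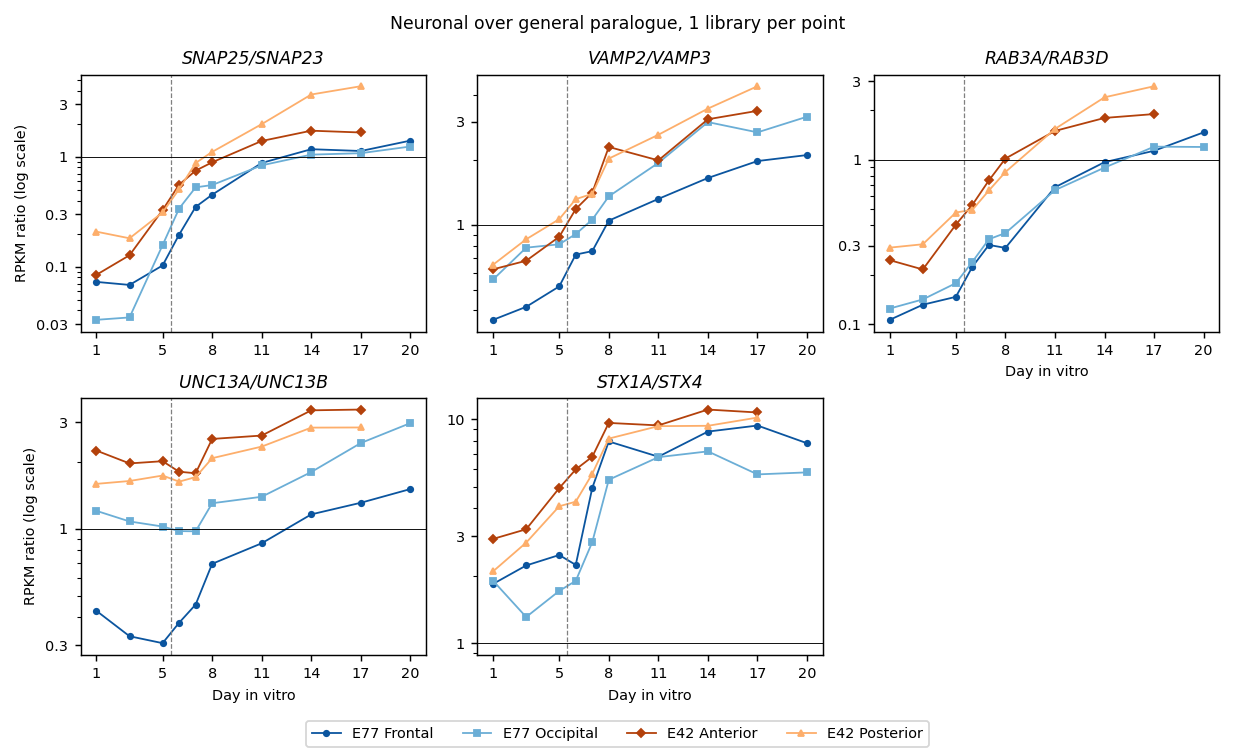
Ratio of RPKM of a neuronal gene to its general relative (log axis) by day in vitro, 1 library per point, with the 4 series in colour and a dashed line between days 5 and 6, when FGF2 was withdrawn. The SNAP25 to SNAP23 ratio lies at or below 0.328 up to day 5, and its highest terminal value is 1.24 to 4.39 in the 4 series.

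Among the genes classed as calcium sensors of release, SYT1 was the highest by RPKM and rose with SYT5, SYT7, SYT2 and SYT9. SYT1, the main sensor of synchronous release in forebrain, had 61.0, 103 and 227 CPM in terminal against 13.5, 34.5 and 45.8 CPM in stem libraries (log2 change 1.93 ± 0.12, edgeR adjusted p = 5.9e-14), and the groups did not overlap. SYT7, a high-affinity sensor, rose by 1.97 ± 0.18 and SYT5 by 2.00 ± 0.15 (edgeR, adjusted p = 5.2e-11 and 3.0e-12). SYT9 rose by only 0.22 ± 0.08 (edgeR, adjusted p = 0.018), and by series it passed as higher in 1 and as lower in E42 Posterior (-0.45). SYT2, the sensor of many hindbrain synapses, passed in 1 series and was at 0.506 to 1.54 CPM in terminal and 0.085 to 1.71 CPM in stem libraries.

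By RPKM the synaptotagmin family was led in every library but 1, day 17 of E42 Posterior, by SYT11, which binds no calcium and takes part in endocytosis and vesicle traffic. Among the members it ranked 1 by mean RPKM in the stem, transition and terminal phases, at 118, 148 and 152 RPKM. SYT11 made up 31.6 to 78.6% of the family's summed RPKM in terminal libraries (median 65.5%) and 69.3 to 87.5% in stem libraries (median 76.7%), and SYT1 5.35 to 12.8% in terminal and 1.79 to 7.86% in stem libraries. SYT11 rose by 0.37 ± 0.09 on the log2 scale (edgeR, adjusted p = 9.6e-04), far less than SYT1, and did not pass with each day reduced to 1 value (adjusted p = 0.052, limma).

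SYT4, an activity-regulated synaptotagmin of dense-core and neurotrophin vesicles, had the largest averaged change of all members, although RIMS4 had the higher fitted change in both E42 series (log2 change 3.94 against 3.41 in Anterior and 6.02 against 5.78 in Posterior, a difference not tested). In E77 Frontal it had 3.88, 23.6, 65.0 and 130 CPM on days 11, 14, 17 and 20, against 0.207, 0.0425 and 0.246 CPM on days 1, 3 and 5. In E77 Occipital the terminal values were 0.63, 2.24, 6.31 and 18.2 CPM and the stem values 0, 0 and 0.109 CPM. SYT4 was still climbing at the last library of every series. In E42 Anterior it had 72.8, 103 and 202 CPM in the terminal phase and 13.4, 10.3 and 11.9 CPM in the stem phase, and in E42 Posterior 163, 465 and 797 CPM against 6.91, 7.33 and 11.7 CPM. The averaged log2 change was 6.22 ± 0.57 (edgeR, adjusted p = 1.5e-10), a fitted value that depends on the near-0 stem counts at E77. By RPKM SYT4 ranked 49 of the members in the stem phase and 7 in the terminal phase.

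Further synaptotagmins with large changes were SYT13 (3.46 ± 0.37), SYT10 (2.91 ± 0.52) and SYT6 (2.72 ± 0.20). SYT13 binds no calcium, SYT6 is known from exocytosis of the sperm acrosome, and SYT10 is known as the sensor of IGF-1 secretion in mouse olfactory bulb neurons. SYT6 had 13.2, 40.6 and 90.5 CPM in terminal libraries and 2.40, 6.20 and 17.5 CPM in stem libraries (edgeR, adjusted p = 1.2e-12), whereas SYT10 stayed at or below 2.73 CPM everywhere. SYT3 (1.49 ± 0.23), SYT14 (1.24 ± 0.13) and SYT16 (1.05 ± 0.11) rose too (edgeR, adjusted p between 5.2e-10 and 1.8e-06). SYT14 had 76.2, 98.3 and 158 CPM in terminal and 19.6, 44.0 and 82.6 CPM in stem libraries. SYT12 gave -0.28 ± 0.25 (edgeR, adjusted p = 0.33). SYT17, which lacks a transmembrane segment, was the 1 synaptotagmin that fell, by 0.39 ± 0.06 (edgeR, adjusted p = 1.2e-06).

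The 3 synapsins, which tether vesicles to one another and to actin, all rose. SYN1 had 14, 31.8 and 74.1 CPM in terminal and 2.46, 6.63 and 13.6 CPM in stem libraries, without overlap (log2 change 2.34 ± 0.17, edgeR adjusted p = 9.3e-13). SYN2 rose by 1.44 ± 0.23 and SYN3 by 1.41 ± 0.15 (edgeR, adjusted p = 2.1e-06 and 1.3e-09), at lower RPKM: SYN1 took 78.9 to 97.8% of the synapsins' summed RPKM in terminal and 64.6 to 92.5% in stem libraries. In the RefSeq annotation the span of each synapsin gene overlaps TIMP genes, SYN1 also ARAF. The libraries mark strand, but whether counting used it is not given in the sources used here, so synapsin counts may include reads of those neighbours. RIMS4 (KCNK15), VAMP1 (TAPBPL), RAB3D (TSPAN16) and STXBP3 (AKNAD1) are also among the 14 members that overlap a named coding gene.

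Complexins were carried by CPLX2. It had 521, 749 and 997 CPM in terminal libraries and 4.38, 136 and 412 CPM in stem libraries, without overlap (log2 change 2.73 ± 0.41, edgeR adjusted p = 1.1e-06). By mean RPKM CPLX2 ranked 8 among the members in the stem phase and 2 in the terminal phase, and it made up 94.1 to 99.5% of the complexins' RPKM in terminal libraries. CPLX1, known in rodents as the complexin of many inhibitory cortical neurons, had 1.13, 4.43 and 11.8 CPM in terminal and 0.0782, 0.495 and 0.862 CPM in stem libraries (3.46 ± 0.32, edgeR adjusted p = 1.3e-10), again without overlap. CPLX3, a complexin of retina and subplate, rose by 1.27 ± 0.29 (edgeR, adjusted p = 3.8e-04) at or below 0.716 CPM.

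Of the SV2 glycoproteins of the vesicle membrane, SV2A rose without overlap, with 34.8, 69.0 and 140 CPM in terminal against 9.76, 17.5 and 31.2 CPM in stem libraries (2.13 ± 0.14, edgeR adjusted p = 2.7e-13). SV2C rose on average by 1.5 ± 0.20 (edgeR, adjusted p = 1.8e-07) but not in every series. SV2B gave no call, at 0.521, 1.38 and 8.87 CPM in terminal and 1.06, 1.81 and 2.87 CPM in stem libraries (-0.12 ± 0.21, edgeR adjusted p = 0.63).

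Of 6 active zone genes tested 5 rose (31.9% of all genes), UNC13C giving no call (0.76 ± 0.37, edgeR adjusted p = 0.076). This count leaves out UNC13B and UNC13D, which were sorted with the general trafficking genes and did not pass. RIMS proteins link RAB3 on the vesicle to calcium channels and UNC13, and the large forms RIMS1 and RIMS2 rose by 1.37 ± 0.10 and 1.25 ± 0.13 (edgeR, adjusted p = 8.9e-13 and 1.2e-09). The short form RIMS3 rose by 0.68 ± 0.16 (edgeR, adjusted p = 5.5e-04). RIMS4, a short form with a single C2 domain, rose most, with 0.885, 8.32 and 33.9 CPM in terminal and 0, 0.313 and 1.45 CPM in stem libraries (4.82 ± 0.42, edgeR adjusted p = 5.0e-11). UNC13A, the main priming factor of glutamatergic synapses, had 48.3, 99.2 and 152 CPM in terminal libraries, against 20.6 to 75.5 CPM in stem libraries (0.95 ± 0.10, edgeR adjusted p = 1.2e-09), while the broadly used UNC13B gave -0.04 ± 0.04 (adjusted p = 0.40). The vesicle GTPase RAB3A had 26.4, 56.6 and 99.8 CPM in terminal against 4.25, 8.97 and 25.5 CPM in stem libraries (2.56 ± 0.15, edgeR adjusted p = 3.9e-14) without overlap, and its share of the RAB3 family's RPKM was 35.8 to 66.0% in terminal and 8.36 to 29.9% in stem libraries. RAB3D, the form of secretory cells, held 23.6 to 56.2% in terminal and 62.5 to 84.5% in stem libraries. RAB3C, a neuronal relative of RAB3A, rose by 1.70 ± 0.13 (edgeR, adjusted p = 2.8e-12). SNAP91, a clathrin assembly protein of vesicle retrieval that shares only its name with the SNAREs, rose by 2.05 ± 0.09 (edgeR, adjusted p = 9.2e-17).

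Among the syntaxin-binding regulators, STXBP6 rose by 1.74 ± 0.21 and STXBP5, or tomosyn, by 0.47 ± 0.07 (edgeR, adjusted p = 1.6e-08 and 9.4e-07), and STXBP4 gave 0.04 ± 0.08 (adjusted p = 0.73). The general trafficking genes that rose were STX7, STX3, VAMP4, STX12, STX6 and VAMP7. Of 9 endosome and Golgi syntaxins 3 rose and 3 fell (median log2 change 0.017), near the 31.9% and 30.4% of all genes. STX7, a syntaxin of late endosomes, had 88.3, 105 and 138 CPM in terminal and 34.4, 49.5 and 64.6 CPM in stem libraries (1.20 ± 0.07, edgeR adjusted p = 5.7e-15) without overlap. VAMP4 (0.63 ± 0.07), STX12 (0.48 ± 0.05), STX6 (0.23 ± 0.05) and VAMP7 (0.17 ± 0.06) changed less. STX10, a trans-Golgi syntaxin, fell by 0.66 ± 0.08 and STX11, known from cytotoxic lymphocytes, by 1.20 ± 0.23 (edgeR, adjusted p = 9.4e-09 and 3.1e-05), with STX11 at or below 3.96 CPM. The Golgi and endoplasmic reticulum syntaxins STX16 and STX18 fell by 0.13 ± 0.04 and 0.14 ± 0.04 (edgeR, adjusted p = 0.0081 and 0.0055). SNAP29, a SNARE of autophagosomes and endosomes, had 45.7, 49.9 and 53.5 CPM in terminal and 45.5, 49.2 and 54.5 CPM in stem libraries. With SNAP29, the genes RAB3B, SNAP47, STX2, STX5, STX8, STX17, UNC13B, UNC13D, VAMP5 and VAMP8 did not pass on average, at log2 changes between -0.31 and 0.25. Some of them passed in single series. RAB3B was lower in E77 Frontal (log2 change -1.32) and was higher, without passing, in the other series. UNC13B and STX2 each passed as lower in 1 series, STX17 and VAMP8 each as higher in 1, and VAMP5 in both directions. The summed RPKM of the 28 general trafficking genes in the terminal phase was 0.931 to 0.994 times the stem value across the 4 series, against 3.11 to 4.02 times for the 30 neuronal release genes.

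Entry into the transition already raised much of the release machinery. Averaged over series, 31 of 68 genes rose between stem and transition (21.6% of all genes) and 4 fell (20.0% of all genes), and between transition and terminal 36 rose (22.7% of all genes) and 7 fell (19.2% of all genes). Both comparisons use the transition libraries. Of the neuronal release genes 22 of 29 rose in the first and 21 in the second. SNAP25 rose by 1.64 ± 0.20 and then by 1.22 ± 0.18, and SNAP23 fell by 0.47 ± 0.06 and then by 0.34 ± 0.06 (edgeR, adjusted p between 2.4e-07 and 2.0e-05).

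CPLX2 rose between stem and transition, and its level was higher on day 5 than on day 1 in every series. On days 1, 3 and 5 it had 4.38, 38.4 and 162 CPM in E77 Frontal, 4.42, 18.3 and 126 CPM in E77 Occipital, 75.5, 154 and 305 CPM in E42 Anterior and 146, 191 and 412 CPM in E42 Posterior. By day 8 the 4 series had 716, 672, 750 and 779 CPM in that order, and none ended above its value of day 11. The transition change was 2.27 ± 0.41 (edgeR, adjusted p = 5.4e-05), and the change between transition and terminal was 0.46 ± 0.38 (adjusted p = 0.34). A higher level on day 5 than on day 1 in all 4 series was seen for 18 of the 68 genes, 12 of them release genes, and for 16.7% of all genes tested. A lower level in all 4 was seen for 6 (14.9% of all genes).

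SYT4 was among 7 late genes, counted over the 42 that rose between stem and terminal. For SV2A, SYT6, CPLX1, SYT13, SYT4, SYT7 and RIMS4, the first day with at least 50% of the series' highest CPM was day 11 or later in every series. SYT4 changed by 4.63 ± 0.50 between transition and terminal (edgeR, adjusted p = 3.6e-08), and SYT13 by 2.61 ± 0.34 (adjusted p = 4.6e-07). For STX12, STX6, SYT11, VAMP4, VAMP7 and the release gene RIMS3 it was before day 6 in every series, and for CPLX2 it was day 6, 7 or 8. A gene that changes little is above 50% of its highest CPM from the start, as STX6 and VAMP7 were on day 1 in every series. For such genes this day does not show when the rise took place. UNC13C, a UNC13 form best known from cerebellum, had its highest value in the middle of both E77 series: 6.63 CPM on day 6 in Frontal and 13.1 CPM on day 7 in Occipital, with 2.73 and 2.54 CPM on day 20. In E42 Anterior UNC13C was highest on day 17, at 12 CPM.

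**Figure D3:**
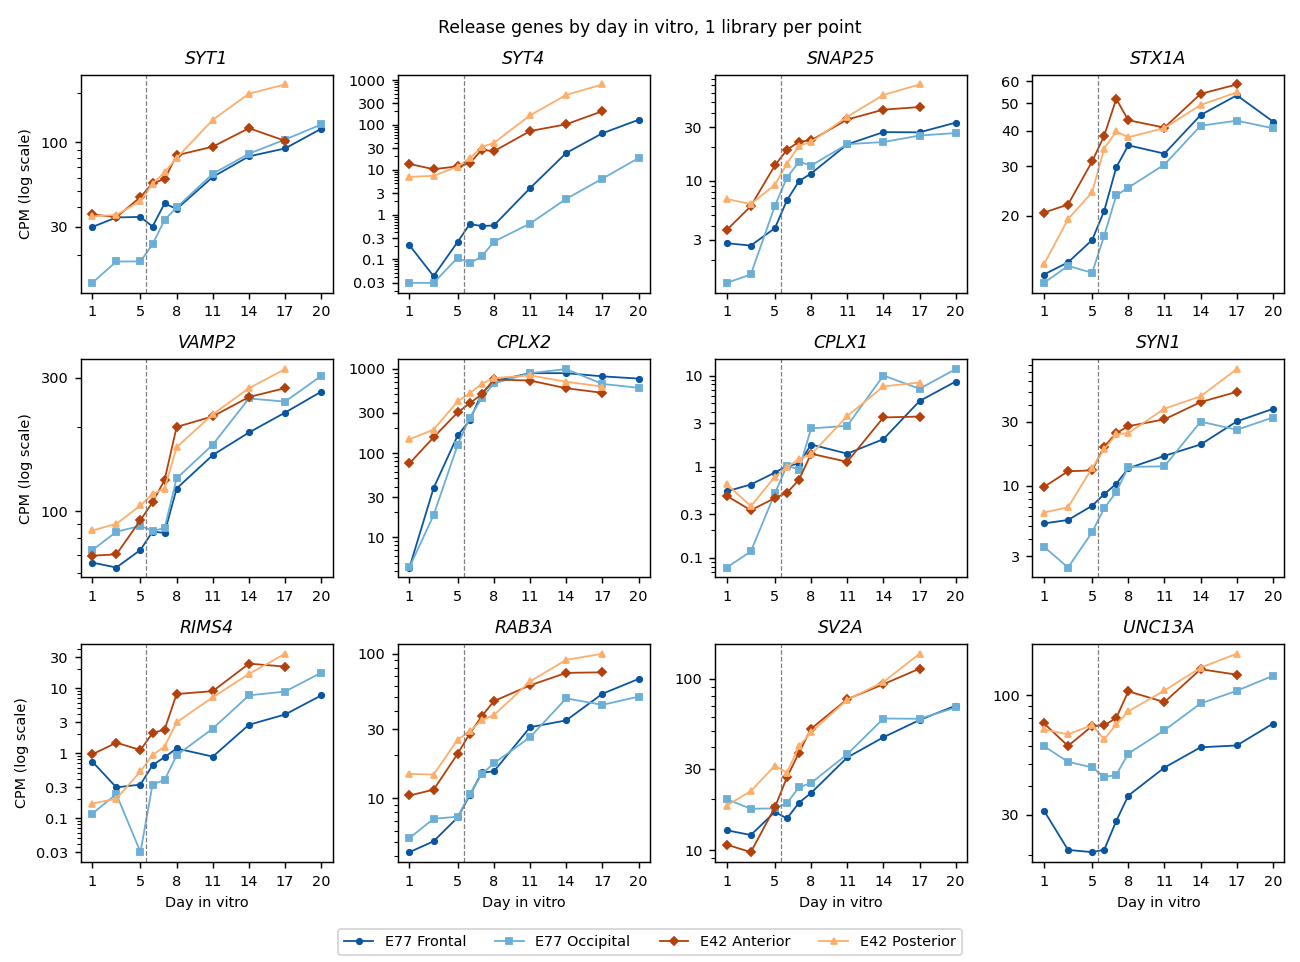
CPM (log axis, values below 0.03 drawn at 0.03) of 12 members by day in vitro, 1 library per point, with the 4 series in colour and a dashed line between days 5 and 6. CPLX2 reaches 672 to 779 CPM by day 8, whereas SYT4 stays at or below 39.6 CPM up to day 8 and reaches 18.2 to 797 CPM at the last day of each series.

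Each series was also tested on its own. In E77 Frontal 33 of 68 genes rose (22.5% of all genes) and 9 fell (20.7%), and in E77 Occipital 36 rose (21.6%) and 6 fell (19.6%). In E42 Anterior 36 rose (17.9%) and 7 fell (16.2%), and in E42 Posterior 35 rose (21.5%) and 7 fell (17.8%). Genes that passed as higher in all 4 series numbered 24 (7.61% of all genes), of which 18 were release genes, among them SNAP25, VAMP2, STX1A, SYT1, SYN1, SV2A, RAB3A, CPLX1 and RIMS4. SNAP23 and STX10 passed as lower in all 4 (5.36% of all genes). SYT9, SYT12, SYT17 and VAMP5 passed in opposite directions in different series (3.37% of all genes), and 8 genes passed in none (28.5%).

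How the change differed between the regions of an age was tested directly, in comparisons added after the data were seen. At E42, 4 of 68 genes had a higher log2 change in Anterior than in Posterior (2.03% of all genes) and 4 a lower one (3.41%), and at E77 3 had a lower one in Frontal than in Occipital (0.890%).

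STX3, a syntaxin of apical membranes and of photoreceptor ribbon synapses, rose in E42 Posterior alone of the 4 tests. There it had 1.31, 4.62 and 9.5 CPM in the terminal and 0.392, 0.369 and 0.309 CPM in the stem phase (log2 change 3.83 ± 0.52, edgeR adjusted p = 1.2e-06). In E42 Anterior it had 1.34, 2.59 and 2.23 CPM in the terminal and 2.27, 2.39 and 1.42 CPM in the stem phase (0.03 ± 0.44, edgeR adjusted p = 0.97). The Anterior minus Posterior difference of these changes was -3.81 ± 0.68 (edgeR, adjusted p = 5.4e-04). At E77 it stayed at 0.0782 to 2.08 CPM on all days.

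STXBP6, or amisyn, a SNARE-like inhibitor of fusion, rose in 3 series but not in E42 Posterior. Terminal and stem values were 7.63 to 15.0 and 1.52 to 3.22 CPM in E77 Frontal, 7.22 to 22.0 and 1.68 to 2.58 CPM in E77 Occipital, and 12.8 to 20.3 and 3.26 to 5.35 CPM in E42 Anterior. E42 Posterior had 5.74, 8.45 and 6.97 CPM in the terminal and 9.82, 6.42 and 7.94 CPM in the stem phase (-0.20 ± 0.40, edgeR adjusted p = 0.73). The Anterior minus Posterior difference was 2.28 ± 0.58 (edgeR, adjusted p = 0.015; 0.071 without stem day 1). RIMS1 showed the same contrast, 1.11 ± 0.28 (edgeR, adjusted p = 0.016), having stood at 34.5 to 43.0 CPM in the E42 Posterior stem phase already. Without day 3 of E42 Anterior that RIMS1 difference had an adjusted p of 0.058, and without stem day 1 of every series 0.056.

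SYT17 passed in opposite directions in the E42 series. It rose in E42 Anterior, with 30.7, 32.4 and 30.9 CPM in the terminal against 19.4, 23.1 and 25.6 CPM in the stem phase, and fell in E42 Posterior, with 21.7, 22.3 and 22.3 CPM against 36.8, 37.2 and 36.0 CPM. The difference of these changes was 1.20 ± 0.18 (edgeR, adjusted p = 4.8e-05). RIMS2 rose more in E77 Occipital (2.20 ± 0.27) than in E77 Frontal (0.67 ± 0.25), with a Frontal minus Occipital difference of -1.54 ± 0.36 (edgeR, adjusted p = 0.022). Over the 14 edgeR fits that left out 1 library, the adjusted p of that difference was 0.0031 to 0.10 and lay above 0.05 in 3.

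**Figure D4:**
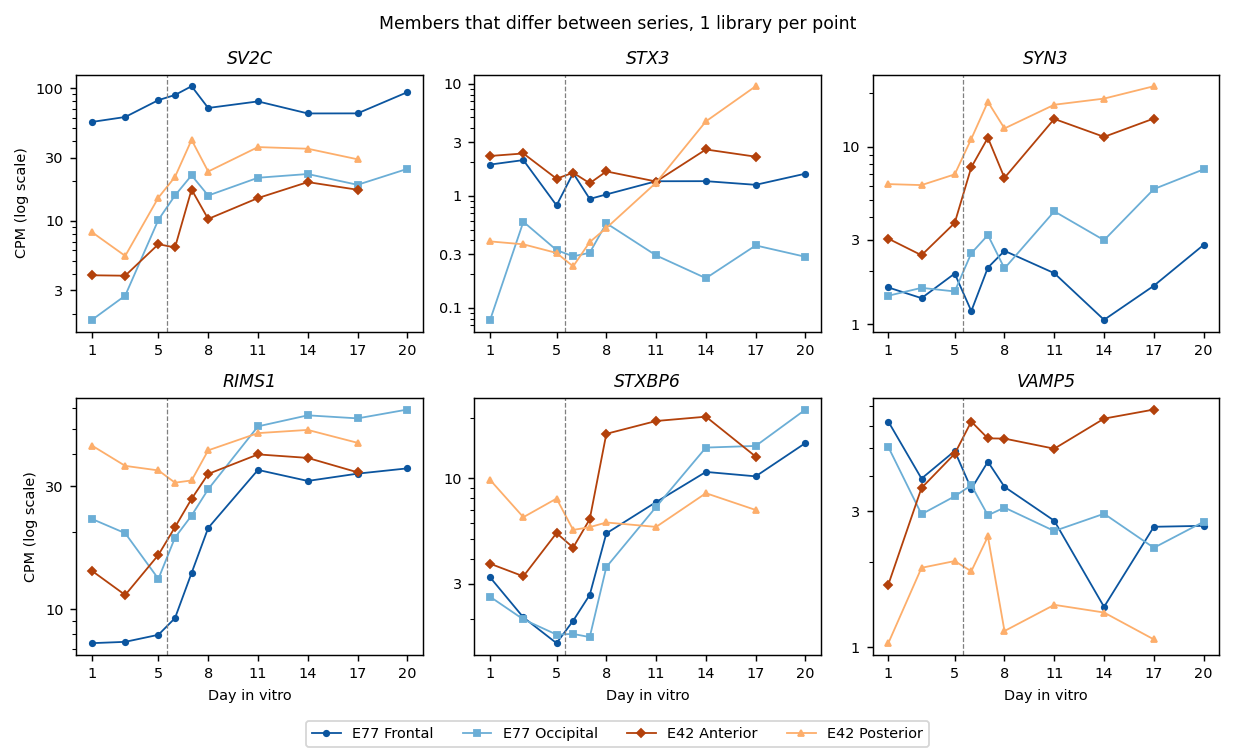
CPM (log axis) of 6 members that differ between series by day in vitro, 1 library per point, with a dashed line between days 5 and 6. SV2C is highest in E77 Frontal on every day (55.7 to 104 CPM), and STX3 climbs to 9.5 CPM only in E42 Posterior.

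Release genes were mostly lower at E77 than at E42. In the stem phase 11 of 68 genes were higher at E77 (28.8% of all genes) and 33 lower (31.4% of all genes), and in the terminal phase 10 were higher (20.6%) and 32 lower (24.4%). Among the 29 release genes 1 was higher and 21 were lower in each phase, with median log2 differences of -0.70 in the stem and -0.66 in the terminal phase, where the medians of all genes were -0.025 and -0.015. General trafficking genes had medians of -0.040 and 0.079. Neuron markers differed in the same direction (10 of 14 lower in the stem and 9 of 14 in the terminal phase), and astrocyte markers in the other (6 and 7 of 8 higher). Oligodendrocyte-lineage markers were higher too, 5 of 8 in the stem and all 8 in the terminal phase. The part of these markers in the result was not tested.

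**Figure D5:**
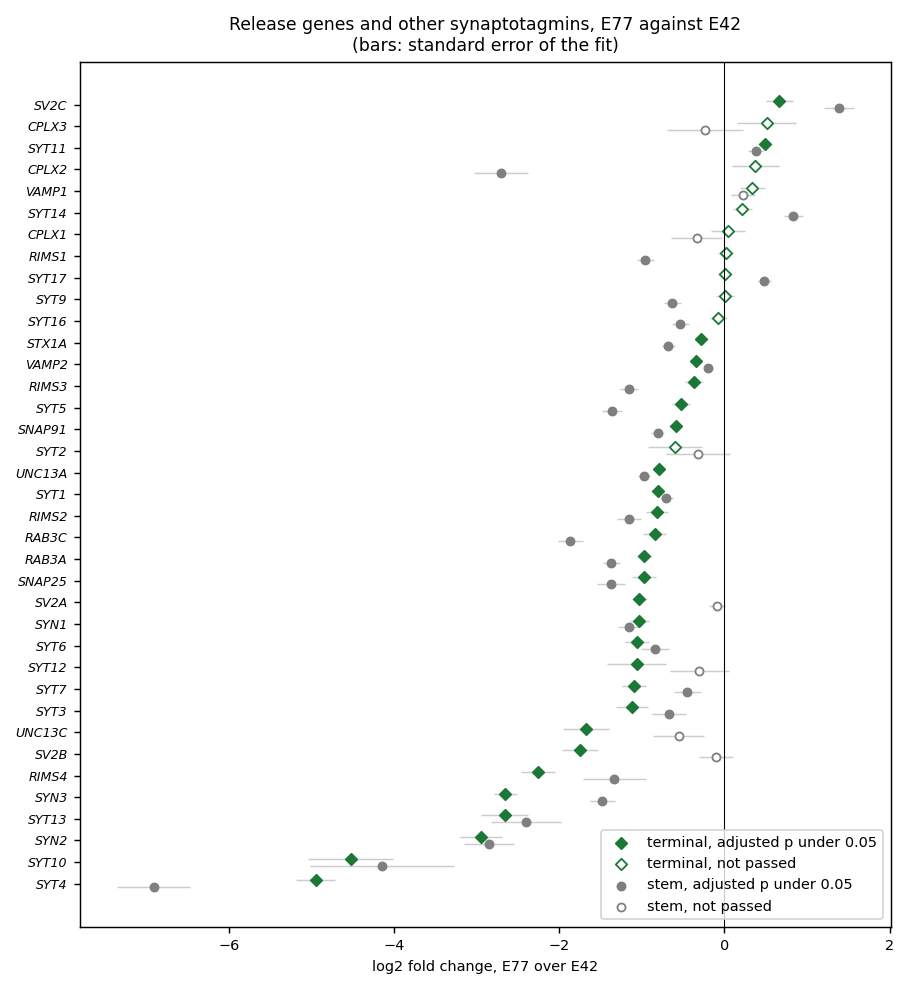
Log2 fold change E77 over E42 of the tested release genes and other synaptotagmins in the terminal (diamonds) and stem (circles) phases, with the standard error of the fit. Filled symbols passed the test, most genes lie left of 0, and CPLX2 lies at -2.71 in the stem phase and 0.38 in the terminal phase.

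SYT4 showed the widest gap. Its terminal libraries had 0.63 to 130 CPM over the 8 at E77, against 72.8 to 797 CPM over the 6 at E42 (log2 difference -4.95 ± 0.23, edgeR adjusted p = 1.6e-13), and the stem difference was -6.91 ± 0.44 (adjusted p = 2.1e-11). SYN2 had 0.146, 0.716 and 1.55 CPM (lowest, median, highest) at E77 and 2.96, 5.03 and 7.90 CPM at E42 in the terminal phase (-2.95 ± 0.25, edgeR adjusted p = 4.9e-10). SYN3 had 1.06 to 7.45 CPM at E77 and 11.4 to 21.9 CPM at E42 there (-2.65 ± 0.14, edgeR adjusted p = 6.8e-14), and for neither synapsin did the ages overlap. SNAP25 (-0.98 ± 0.14), RAB3A (-0.97 ± 0.09), SYT1 (-0.81 ± 0.08) and VAMP2 (-0.34 ± 0.06) differed less (edgeR, adjusted p between 2.7e-09 and 1.5e-05). SYT11 was higher at E77, by 0.49 ± 0.09 in the terminal phase (edgeR, adjusted p = 5.9e-05). SV2C was the 1 release gene called higher at E77, but it was lower there when E77 Occipital was set against E42 Posterior alone (log2 difference -1.07 in the stem and -0.70 in the terminal phase).

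CPLX2 differed by age at the start and not detectably at the end. At E77 it had 4.38 to 162 CPM in the stem phase and at E42 75.5 to 412 CPM (-2.71 ± 0.33, edgeR adjusted p = 5.3e-07), and in the terminal phase 598 to 997 and 521 to 839 CPM (0.38 ± 0.29, adjusted p = 0.31). The terminal against stem change was larger at E77 by 2.15 ± 0.76 (edgeR, adjusted p = 0.047). That call was lost in 14 of the 26 fits that left out 1 library, with adjusted p between 0.0020 and 0.091, and the difference was 3.08 with day in vitro as a block.

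Such age differences of the change were called for 9 of 68 genes with a higher log2 change at E77 (9.46% of all genes) and for 9 with a lower one (9.95% of all genes). It was higher at E77 for STXBP6 (1.59 ± 0.40), RAB3C (1.20 ± 0.26) and RIMS1 (0.99 ± 0.20), and lower for STX3 (-2.16 ± 0.49) and SV2B (-1.65 ± 0.43; edgeR, adjusted p between 8.2e-04 and 0.0079). Set against each other alone, E77 Frontal and E42 Anterior gave no call for these 5 genes, with -0.24 for STX3 and 0.19 for STXBP6, while E77 Occipital and E42 Posterior gave -4.08 and 2.99. SV2B fell in E77 Occipital, with 0.798, 0.521, 0.902 and 0.603 CPM in the terminal and 2.11, 1.84 and 2.22 CPM in the stem phase (-1.55 ± 0.43, edgeR adjusted p = 0.0048).

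At E42, 19 of 68 genes were higher in Anterior over all days (25.1% of all genes) and 24 were lower (30.3% of all genes), or 15 lower without the day block. Of the 29 release genes 3 were higher and 15 lower, and of the 26 general trafficking genes 12 were higher and 4 lower. VAMP8 (2.58 ± 0.46), SYT12 (1.75 ± 0.27), STX11 (1.70 ± 0.26) and VAMP5 (1.64 ± 0.19) were the largest (edgeR, adjusted p between 4.0e-08 and 3.3e-05). VAMP5, a SNARE of muscle and other non-neural cells, had 1.66, 5.40 and 6.83 CPM (lowest, median, highest of 9) in Anterior and 1.04, 1.41 and 2.45 CPM in Posterior. VAMP8, a SNARE of endosomes and secretory cells, was at or below 1.26 CPM in Anterior and 0.309 CPM in Posterior. All 10 fibroblast markers were higher in Anterior, and 11 of 14 neuron markers were lower, and their part in these differences was not tested. Lower in Anterior were SYT2 (-1.16 ± 0.28), SV2C (-1.08 ± 0.14), SYT6 (-0.99 ± 0.12), CPLX1 (-0.78 ± 0.20) and SYN3 (-0.77 ± 0.11).

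At E77, 13 of 68 genes were higher in Frontal over all days (16.3% of all genes) and 17 were lower (13.8% of all genes), the first count being 8 without the day block. SV2C, which is otherwise known from basal ganglia, separated the areas from the first day: it had 55.7, 60.7, 81.3, 88.9, 104, 71.0, 79.5, 64.6, 64.6 and 93.4 CPM over the 10 days in Frontal, against 1.80, 2.74, 10.2, 15.6, 22.1, 15.5, 21.2, 22.6, 18.7 and 24.7 CPM in Occipital. No Frontal library overlapped an Occipital one, and the log2 difference was 2.69 ± 0.14 (edgeR, adjusted p = 3.4e-13). SV2C gave no call between phases in Frontal (0.20 ± 0.36, adjusted p = 0.69) and rose by 2.14 ± 0.41 in Occipital, a difference of -1.94 ± 0.54 that did not pass (edgeR, adjusted p = 0.060). STX3 (2.06 ± 0.27) and SYT4 (2.33 ± 0.64) were also higher in Frontal (edgeR, adjusted p = 1.3e-06 and 0.0072), SYT4 not passing without the day block (adjusted p = 0.23). UNC13A (-0.86 ± 0.05), RIMS1 (-0.90 ± 0.08) and SYT7 (-0.95 ± 0.13) were lower in Frontal (edgeR, adjusted p between 3.4e-12 and 1.3e-06).

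Other genes of the presynaptic pathway, none of them among the 73, were counted for the terminal against stem comparison. In it 31.9% of all genes tested rose and 30.4% fell. Of 11 active zone scaffold genes 9 rose (median log2 change 1.68), and of 13 vesicle membrane genes tested 11 rose and 1 fell (1.40). PCLO, which encodes piccolo, had 70.8, 108 and 195 CPM in terminal against 15.7, 23.0 and 34.8 CPM in stem libraries (2.29 ± 0.26), and SYP, the vesicle marker synaptophysin, 14.8, 26.8 and 67.2 against 2.59, 10.8 and 17.7 CPM (1.58 ± 0.13; edgeR, adjusted p = 7.7e-09 and 4.7e-12). The GABA transporter of vesicles SLC32A1 had 14.4, 25.9 and 43.6 CPM in terminal and 0, 3.37 and 17.7 CPM in stem libraries (2.81 ± 0.40, edgeR adjusted p = 5.9e-07), and the glutamate transporter SLC17A7 had 0, 0.10 and 8.32 CPM in terminal and 0, 0.211 and 4.26 CPM in stem libraries with no call (edgeR, adjusted p = 0.66). Of 8 genes for SNARE recycling and chaperones 6 rose, of 10 endocytosis genes 8 rose and 1 fell, and of 6 calcium channel genes 5 rose. The 14 genes listed for Golgi and lysosome SNAREs include the SNARE-binding proteins VPS33A, VPS33B, VPS45 and SCFD1. Of these 14 genes 6 were higher and 3 lower, with a median of 0.10. The 26 general trafficking members had 6 higher and 9 lower, with a median of -0.036.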

How the data were processed

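Poly(A) RNA of 38 libraries was sequenced after dUTP strand marking, per the labels' protocols. Both files used were made and deposited by the authors: whole read counts of 34619 genes, with no normalization, and RPKM of those genes. STAR and featureCounts are named in the submitters' processing notes, while versions, genome build, annotation and any strand setting of the counting are not given in the sources used here. The deposited RPKM values and counts implied the same length for a gene in every library (63 members checked), so RPKM served for levels between genes and counts for tests.

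All tests on counts ran in edgeR 4.0.16 under R 4.3.3, after filtering with filterByExpr over the 12 groups of series and phase, with TMM scaling and 1 robust quasi-likelihood fit over all libraries, and p-values adjusted over the 20794 genes kept. Age and region comparisons within phases or over all days carried day in vitro as a block, because the labels give each series the same culture days; over 55 same-day pairs of libraries, deviations from the group means correlated above 0.1 in 44 (median 0.224). CPM in the text used TMM-scaled library sizes without a prior count. Errors after ± are standard errors of the fit. No pair among 703 library pairs came within sampling noise of being the same library. Library totals had a median of 27597365.5 counts, and a gene at a few counts has a wide counting error that the folds do not show. On simulated counts the terminal against stem test recovered 88% of changes of 1 and 99% of changes of 2 on the log2 scale, with 11 false calls among 20794 genes. Each simulated library was drawn independently, at a flat level within a phase, and far fewer genes changed than in the data. Trends over the days of a phase and same-day correlations were left out, so these rates need not hold for the real libraries.

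Values of 2 members and 1 pathway gene are not reported here, though they are in the counts. The members and gene lists were chosen with earlier results of these data known. Named with values were fixed pairs and families, the 8 largest rises and 8 largest falls between stem and terminal among genes that passed and reached 1 CPM, and up to 5 per direction in other comparisons; members outside that rule, such as STX7, STX12, VAMP4, VAMP8, SNAP91 and SYT9, and pathway genes such as PCLO, SYP and SLC17A7, were named after their values were seen. Alternatives were DESeq2 1.42.0 size factors and Wald test, no filter, limma 3.58.1 on log2(RPKM + 1) or log2(RPKM + 0.1), fits without the day block or with it added, only the compared libraries, other phase limits, single region pairs, 3 series, 1 value per day, and each library left out in turn. RefSeq held 72 of the 73 symbols and served only for neighbouring genes. Figures were drawn with matplotlib 3.10.9.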

Additional observations from a re-analysis of the deposited data

Results flagged for a closer look

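The 4 terminal libraries of E77 Frontal and those of E77 Occipital were looked at for 47 members each. In 6 of these 94 cases, 1 library stood far from the other 3. Chance gives about 1 in 20 for interchangeable libraries, whereas the libraries here are successive days of a culture. In E77 Frontal the cases were RAB3D on day 14 (27.6 CPM, others 35.1 to 35.9 CPM), VAMP5 on day 14 (1.39 CPM, others 2.65 to 2.78 CPM) and SYT13 on day 20 (3.67 CPM, others 0.645 to 0.927 CPM). In E77 Occipital they were STX16 on day 11 (147 CPM, others 130 to 131 CPM), SYT14 on day 11 (147 CPM, others 76.2 to 79.6 CPM) and SYT2 on day 14 (1.17 CPM, others 0.830 to 0.882 CPM).

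The terminal against stem change differed between ages by a test of the difference, on the log2 scale, for CPLX2 (2.15), STXBP6 (1.59), RAB3C (1.20), RIMS1 (0.99) and SYT5 (0.87), which were higher at E77, and for STX3 (-2.16), SV2B (-1.65), VAMP5 (-1.04), SYN3 (-0.89) and SV2A (-0.76), which were lower at E77. Of the 26 fits that left out 1 library, the call was lost in 14 for CPLX2, 20 for SV2A, 9 for SYN3 and 7 for SYT5.

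Between the E42 regions the change differed, Anterior minus Posterior, for STXBP6 (2.28), SYT17 (1.20), RIMS1 (1.11), STX3 (-3.81), SYT12 (-2.55) and STXBP5 (-0.91), the SYT12 call being lost in 8 of 12 such fits. Between the E77 areas it differed, Frontal minus Occipital, for RAB3B (-1.91), RIMS2 (-1.54) and SYT17 (-0.73). With only the compared libraries in the fit, or without day 1 in the stem phase, none of these 3 passed (edgeR, adjusted p between 0.060 and 0.14).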

How the results depend on the processing

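Of 153 gene results named, 108 lost no call and changed no sign under any alternative. Without a low-count filter 7 members fell between stem and transition. Without day 1 in the stem phase 5 members had a lower terminal against stem change at E77, and without day 20 in the terminal phase 5 had a higher one. With 1 value per day 7 members fell between stem and terminal and 2 between transition and terminal. For the age difference of the change, E77 Frontal against E42 Anterior alone gave 2 higher and 5 lower members, and E77 Occipital against E42 Posterior alone gave 5 and 5. With limma on log2(RPKM + 1) and on log2(RPKM + 0.1), 3 members fell in E42 Anterior and 8 were higher in E42 Anterior than in E42 Posterior. RAB3B between stem and terminal, averaged over series, was at 0.04 with no call. That average turned to -0.0072 without the filter, -0.0215 without day 20, -0.10 without E42 Anterior and -0.0019 with series as an additive block. It was -0.0399 with 1 value per day, and -0.0176 and -0.0066 with limma on RPKM. SV2C was lower at E77 when Occipital was set against Posterior alone (-1.07 in the stem and -0.70 in the terminal phase), and the age difference of SYN3 became 0.16 there. The cause of these shifts was not tested.

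Leaving out 1 library at a time gave 4 to 7 members lower in E42 Anterior, with 4 when terminal day 14 was left out. It gave 3 to 7 lower between stem and transition, with 7 without E42 Anterior day 1. It gave 4 to 10 lower between transition and terminal, with 4 without day 6 of E42 Posterior, E77 Frontal or E77 Occipital. It gave 5 to 13 with a higher and 6 to 11 with a lower change at E77, with 5 without E42 Posterior day 5. RAB3B ranged from -0.0615 to 0.106. Without the replicate block of day, 15 members were lower in E42 Anterior and 8 higher in E77 Frontal, and the block added to the age difference of the change gave 12 higher and 13 lower. Changes in genes at a few counts, such as VAMP8 and SYT10, are limited by depth.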

Other observations

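Genes that serve the release machinery without belonging to it also differed by age. Of 8 genes for SNARE recycling and chaperones, 7 were lower at E77 than at E42 in the terminal phase, with a median log2 difference of -0.69, and in the stem phase 4 were lower and 1 higher. Of 10 endocytosis genes 8 were lower and 1 higher at E77 in the terminal phase (median -0.44), and 6 lower and 3 higher in the stem phase. Their summed level was higher at E77 instead, with terminal means of 988 CPM in Frontal and 868 CPM in Occipital. E42 Anterior and E42 Posterior had 558 and 664 CPM. In the same order of series, the stem means were 815 and 649 CPM at E77 and 421 and 496 CPM at E42. Such a sum is weighted to the genes with the most reads. STON2 had up to 22204 reads in a library, and BIN1, the next highest of the endocytosis genes, up to 4349. The part of single genes in the summed level was not tested. Of 13 vesicle membrane genes tested, 7 were lower and 1 higher at E77 in the terminal phase (median -0.59), and 10 lower and 1 higher in the stem phase (median -1.25). Of 6 presynaptic calcium channel genes, 5 were lower in E42 Anterior than in E42 Posterior over all days (median -0.52). Over all genes, 24.4% were lower and 20.6% higher at E77 in the terminal phase, 31.4% lower and 28.8% higher in the stem phase, and 30.3% lower in E42 Anterior over all days. These calls used edgeR's quasi-likelihood test with the day block.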
